A study of Mus musculus with 18 samples.

Results

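Fos, Fosb, Jun, Junb, Egr1, Atf3, Ier2, Dusp1, Klf4 and Klf6 are 10 immediate early genes, taken by symbol from the 54354 gene rows of a bulk RNA sequencing count table from mouse colon. They are described in the 10 libraries of the diets without serine. The study, titled for ceramides, metastasis of colorectal cancer and revival stemness, has 18 libraries, with 5 on a high fat diet, 3 on a control diet and 10 on serine-free versions of both. The tissue label is colon, the cell type label is tumor and the genotype is wild type in all of them. SF_HFD names the 5 libraries of the serine-free high fat diet. SF_CD names the 5 libraries of the serine-free control diet. Both groups therefore share the removal of serine and the wild type genotype, and differ in the fat content named in the labels. Organoids are named as the RNA source in the extraction protocol, while the design text of the series speaks of sorted live cells. Age, strain, pooling of animals and length of feeding were not stated in the labels. Nothing in the labels says that libraries of a group came from separate animals or cultures, so the spread behind each p-value is that of libraries and could be purely technical. The 8 libraries of the diets with serine were not used. Of the 10 genes, 7 are listed at 0 in all 8 of those columns, as are Actb, Gapdh, Eef1a1 and Epcam, which had at least 1830, 781, 503 and 106 counts in every serine-free column.

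Immediate early genes are transcribed within minutes of a growth factor, stress or wounding signal, without the need for new protein. Kinases of the MAPK cascades act on transcription factors already bound at these genes, such as SRF with its partners, ATF2 and CREB, and the messages are short-lived. FOS and JUN proteins pair to form AP-1, which binds DNA, and DUSP1 removes the phosphates that switch MAPKs on. In the gut, KLF4 is known for cell cycle exit and goblet cell maturation, and JUN takes part in the growth of intestinal tumours in mice.

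The promoters of 8 of the 10 genes were found in RefSeq's table for build GRCm38.p6. They cover 250 bases before to 50 bases after the annotated start. Windows on the chromosome that holds Egr1 were left out before the search, so Egr1 has none here. No entry was matched for Ier2. Jun, Klf6 and Fos are shown because their levels moved most alike over the libraries, and Junb because its levels moved least like theirs. Capitals mark matches to TGACNTCA or TGACG, the full and the short form of the site that CREB and ATF proteins bind. The letters TATAAA, the core of a TATA box, are also in capitals. The Jun window is chr4:95052173-95052472, minus strand. The Klf6 window is chr13:5861239-5861538, plus strand. The Fos window is chr12:85473640-85473939, plus strand. The Junb window is chr8:84978699-84978998, minus strand. Each is printed 5′ to 3′ in the direction of its gene.
Jun: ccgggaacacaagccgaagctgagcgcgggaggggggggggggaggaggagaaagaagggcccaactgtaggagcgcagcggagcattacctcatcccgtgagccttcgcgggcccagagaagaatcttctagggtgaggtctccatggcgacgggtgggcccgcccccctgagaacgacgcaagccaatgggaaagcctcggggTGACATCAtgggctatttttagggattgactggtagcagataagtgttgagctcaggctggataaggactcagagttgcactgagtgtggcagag
Klf6: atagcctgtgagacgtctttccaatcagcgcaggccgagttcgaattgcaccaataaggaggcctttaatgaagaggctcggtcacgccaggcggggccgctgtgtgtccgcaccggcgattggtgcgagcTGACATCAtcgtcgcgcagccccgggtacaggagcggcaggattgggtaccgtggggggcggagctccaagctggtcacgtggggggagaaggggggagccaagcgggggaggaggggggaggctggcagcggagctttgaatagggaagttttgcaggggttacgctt
Fos: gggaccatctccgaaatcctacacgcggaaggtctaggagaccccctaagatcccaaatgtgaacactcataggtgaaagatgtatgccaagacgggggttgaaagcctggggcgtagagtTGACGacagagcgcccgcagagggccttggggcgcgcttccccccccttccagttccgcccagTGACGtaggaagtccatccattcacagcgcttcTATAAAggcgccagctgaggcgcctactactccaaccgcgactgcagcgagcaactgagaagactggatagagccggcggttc
Junb: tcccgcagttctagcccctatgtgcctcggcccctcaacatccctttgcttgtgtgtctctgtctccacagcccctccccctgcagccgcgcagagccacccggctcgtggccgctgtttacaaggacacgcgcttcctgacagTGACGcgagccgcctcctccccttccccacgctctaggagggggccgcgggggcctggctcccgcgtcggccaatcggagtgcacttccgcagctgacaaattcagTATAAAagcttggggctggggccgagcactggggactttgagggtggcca

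Positions count from 1 at the annotated start, with -1 just before it, and both strands were searched. Jun holds TGACATCA at -45 to -38, and Klf6 holds the same 8 letters at -119 to -112. Fos has no full site, but it has TGACG at -129 to -125 and at -66 to -62, and TATAAA at -33 to -28. Junb has TGACG at -106 to -102 and TATAAA at 1 to 6, which is at the RefSeq start and not before it. The GENCODE M21 start of Junb lies 30 bases downstream of the RefSeq start. For Atf3 and Dusp1 the GENCODE start lies far upstream on the minus strand. It is at 191218039 against a RefSeq start of 191183333 for Atf3, and at 26562128 against 26508472 for Dusp1. The windows of Atf3 and Dusp1 therefore lie inside the gene spans given below. Dusp1 holds TGACGTCA at -143 to -136, which also contains TGACG on either strand, and a further TGACG at -191 to -187. Fosb has TGACG at -60 to -56. On the minus strand the short form lies at -7 to -3 in Atf3 and at -232 to -228 in Klf4. The full form therefore occurs in 3 of the 8 windows, against 8.83% of 32851 promoter windows of this length. Those 32851 leave out the chromosome of Egr1. The short form occurs in 6 of 8 against 20.8%, and TATAAA in 2 of 8 against 13.6%. None of the 8 windows held TGANTCA, the classic form of the AP-1 site, found in 7.81% of the 32851 windows. None held the CArG box of SRF, found in 1.63%. At shares this low, the lack of a match in 8 windows is not informative. Bases farther from the start were not searched, so these genes are not shown to lack either site. A match describes letters in the window and not binding.

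Depth was uneven. The total count was 727610 to 12146933 in the SF_HFD libraries and 499774 to 12841275 in the SF_CD libraries. SF_HFD library 5 and SF_CD libraries 1 and 5 had under 1000000 counts, so that 3 counts equal 3.79, 6.76 and 5.84 CPM (counts scaled to a library of 1000000) there. In the 7 deeper libraries 3 counts equal at most 0.691 CPM. Rows of ribosomal RNA took 2.97% to 7.19% of the counts in SF_HFD libraries, against 22.0%, 2.35%, 2.08%, 2.40% and 14.6% in SF_CD libraries 1 to 5. Malat1, a nuclear non-coding RNA, took at most 1.18% in SF_HFD libraries against 12.1% in SF_CD library 1 and at most 1.66% in the other SF_CD libraries. All 8 epithelial markers were measured, and their summed level was 4768 to 6409 CPM in SF_HFD, against 2122 to 4390 CPM in SF_CD, on plain library totals. Epithelial markers, which the colon tumor label implies, were thus detected in every library. Smooth muscle markers summed to 130.8 to 219 CPM in SF_HFD, against 1.62 to 19.9 CPM in SF_CD. Cd3e, of T cells, was at 0 in all 10 libraries.

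Levels below are CPM after TMM scaling, a correction for library composition, except where per kilobase is named. Divided by the length of the longest coding transcript, the median level over the 10 libraries was 49.0 CPM per kilobase for Klf6, 31.8 for Junb, 18.5 for Klf4 and 18.3 for Ier2. It was 14.0 CPM per kilobase for Dusp1, 13.2 for Fos, 10.8 for Jun, 5.79 for Atf3, 1.81 for Egr1 and 0.327 for Fosb. Neighbours in this order from Klf6 to Jun did not differ beyond their spread over libraries. The steps below Jun did: Jun lay above Atf3 in 9 of 10 libraries, Atf3 above Egr1 in 9 of 10, and Egr1 above Fosb in 10 of 10. Klf6 thus had the highest median level per length and Fosb the lowest.

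**Figure D1:**
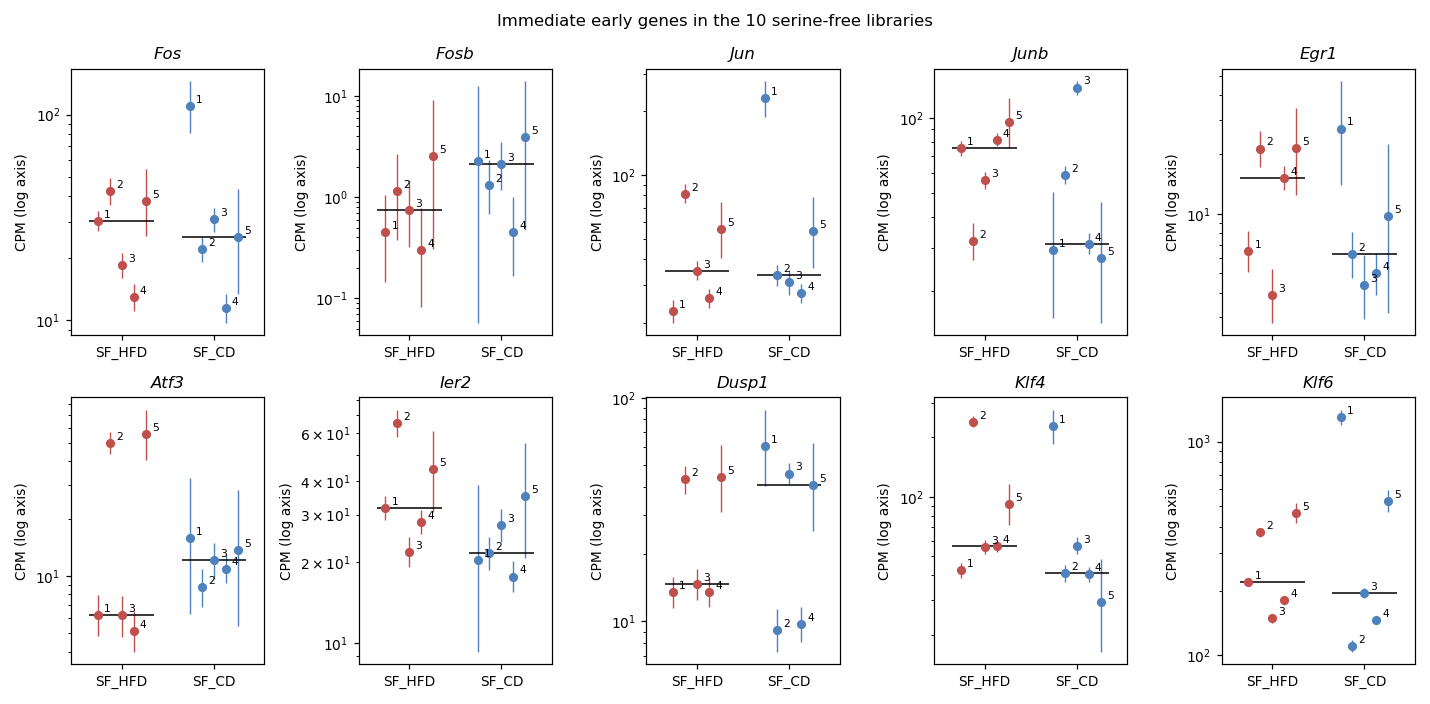
Level of each gene in CPM on a log axis, with SF_HFD libraries (red) left of SF_CD libraries (blue), numbered by replicate. Vertical lines are exact 95% Poisson intervals of the count and black bars are group medians; the groups overlap for all 10 genes, and SF_CD library 1 stands at the top for Fos, Jun, Egr1, Dusp1 and Klf6.

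None of the 10 genes passed the test between the diets. With edgeR's quasi-likelihood test and Benjamini-Hochberg adjustment over 11780 genes, 0 of the 10 passed an adjusted p of 0.05, where 0.323% of all tested genes did (18 higher and 20 lower in SF_HFD). At an unadjusted p under 0.05 there were again 0 of 10, against 11.6% of all genes. The groups did not separate for any of the 10, against 3.65% of all genes. DESeq2 and limma-voom with sample quality weights, the form of limma-voom meant below, also called 0 of the 10. Of all 11780 genes, DESeq2 called 78 higher and 220 lower in SF_HFD, and limma-voom 100 higher and 73 lower. Log2 fold changes of SF_HFD over SF_CD were positive for 5 genes and negative for 5, with a median of -0.05 beside 0.02 over all genes tested. This even split rested on single libraries: without SF_CD library 1 there were 8 positive and a median of 0.32, without SF_HFD library 2 there were 4 positive and a median of -0.49, and over the 7 libraries above 1000000 counts there were 7 positive and a median of 0.52. The 95% interval of the fold held a 2-fold difference in at least 1 direction for each of the 10 genes, so likeness of the diets is not shown either.

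Fos, a subunit of AP-1 on chromosome 12 (mm10, 85473890 to 85477273), was at 30.4, 42.4, 18.6, 12.98 and 37.9 CPM in SF_HFD libraries 1 to 5, against 110.5, 22.3, 31.0, 11.5 and 25.3 CPM in SF_CD libraries 1 to 5. The groups overlapped, and SF_CD library 1 lay far above the other 9 libraries. Its 49 counts give a 95% counting interval of 81.7 to 146 CPM, which lies wholly above every other library's value. Means were 28.5 ± 12.5 CPM in SF_HFD, against 40.1 ± 40.0 CPM in SF_CD (SD, n = 5 each). The fold was 0.744, with a 95% interval of 0.333 to 1.66 (edgeR, adjusted p = 0.820). Without SF_CD library 1 the log2 fold change was 0.34 and no longer -0.43, with edgeR's adjusted p at 0.770 (0.648 to 0.971 over all alternatives).

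Fosb, a relative of Fos on chromosome 7 (mm10, 19302696 to 19310051), was scarce, with 5, 5, 8, 4 and 2 counts in SF_HFD libraries 1 to 5, against 1, 12, 15, 6 and 2 counts in SF_CD libraries 1 to 5. In 3 of the 10 libraries its count was under 3. The means were 1.03 ± 0.895 CPM in SF_HFD, against 2.01 ± 1.28 CPM in SF_CD (SD, n = 5 each). The log2 fold change of -1.05 had a standard error of 0.75 and an adjusted p of 0.625 (edgeR), and a difference was not detectable at this depth.

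Jun, the usual partner of FOS, on chromosome 4 (mm10, 95049034 to 95052222), was at 22.6, 81.6, 35.2, 26.0 and 55.6 CPM in SF_HFD libraries 1 to 5, against 229.9, 33.6, 31.1, 27.6 and 54.5 CPM in SF_CD libraries 1 to 5. SF_CD library 1 was again the highest by a wide gap, SF_HFD library 2 came next, and the groups overlapped. The 102 counts in SF_CD library 1 give a counting interval of 187 to 279 CPM. Jun averaged 44.2 ± 24.5 CPM in SF_HFD, against 75.4 ± 87.1 CPM in SF_CD (SD, n = 5 each). Its fold was 0.608 with a 95% interval of 0.256 to 1.44 (edgeR, adjusted p = 0.683). With SF_CD library 1 left out, the SF_CD mean was 36.7 CPM and the log2 fold change became 0.30 (edgeR, adjusted p = 0.788, and 0.520 to 0.997 over all alternatives). Junos lies antisense to Jun, and whether the counting used strand is not stated, so a share of reads could belong to either.

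Junb, a JUN relative on chromosome 8 (mm10, 84974484 to 84978718) that can act against JUN on some targets, had another pattern. It was at 75.5, 31.8, 56.1, 81.7 and 96.0 CPM in SF_HFD libraries 1 to 5, against 29.3, 59.0, 132.6, 31.1 and 27.3 CPM in SF_CD libraries 1 to 5. SF_HFD library 2 and SF_CD library 1, which held the 2 highest Jun levels, were among the lower libraries for Junb. SF_CD library 3 held the most. The fold was 1.19 with a 95% interval of 0.601 to 2.34 (edgeR, adjusted p = 0.889), and the means were 68.2 ± 24.9 CPM in SF_HFD, against 55.8 ± 44.8 CPM in SF_CD (SD, n = 5 each). Without SF_CD library 3 the log2 fold change of Junb was 0.86, against 0.24 with all 10 libraries (edgeR, adjusted p = 0.409, and 0.409 to 0.977 over all alternatives). The annotated span of Junb overlaps Prdx2 on the opposite strand.

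The ratio of the Junb level to the Jun level, on the CPM scale and so without correction for length, was 3.34, 0.390, 1.59, 3.14 and 1.73 in SF_HFD libraries 1 to 5, against 0.128, 1.75, 4.26, 1.13 and 0.5 in SF_CD libraries 1 to 5. It was below 1 in 1 SF_HFD library and in 2 SF_CD libraries. The ratio of Fos to Jun varied less, from 0.499 to 1.34 in SF_HFD and from 0.415 to 0.995 in SF_CD. Junb and Jun were thus in different proportions within each diet, and the ranges of the diets overlapped for both ratios.

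Atf3, a stress-induced repressor and activator of the ATF family on chromosome 1 (mm10, 191170296 to 191218039), was at 6.24, 50.01, 6.20, 5.13 and 55.6 CPM in SF_HFD libraries 1 to 5, against 15.8, 8.71, 12.1, 10.9 and 13.6 CPM in SF_CD libraries 1 to 5. The SF_HFD libraries fell on either side of the SF_CD libraries: 2 and 5 were above all of them and 1, 3 and 4 below all of them. The counting intervals of SF_HFD libraries 2 and 5, 43.6 to 57.1 and 40.4 to 74.6 CPM, lie above every SF_CD value. The means were 24.6 ± 25.8 CPM in SF_HFD, against 12.2 ± 2.68 CPM in SF_CD (SD, n = 5 each). The fold of 1.996 had an interval of 0.746 to 5.34 (edgeR, adjusted p = 0.592). The log2 fold change, 0.997 with all 10 libraries, was 0.46 without SF_HFD library 2 and 0.497 without SF_HFD library 5 (edgeR, adjusted p = 0.864 and 0.849, and 0.462 to 0.983 over all alternatives). Of the 10 genes, Atf3 varied most over the libraries, with a standard deviation of 1.167 on the log2 scale, at the 85.1 percentile of 7284 genes with a mean of at least 10 CPM.

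Egr1, a zinc finger factor of the same early wave, was at 6.52, 21.4, 3.88, 15.2 and 21.5 CPM in SF_HFD libraries 1 to 5, against 27.1, 6.28, 4.34, 5.01 and 9.74 CPM in SF_CD libraries 1 to 5. SF_HFD libraries 2, 4 and 5 were higher than SF_CD libraries 2 to 5, and SF_CD library 1, with only 12 counts, was the highest of all. Egr1 averaged 13.7 ± 8.22 CPM in SF_HFD, against 10.5 ± 9.49 CPM in SF_CD (SD, n = 5 each). The log2 fold change was 0.60 with a standard error of 0.62 (edgeR, adjusted p = 0.758). Without SF_CD library 1 it was 1.18 with an interval of 0.03 to 2.33, an unadjusted p of 0.0451 and an adjusted p of 0.358 (edgeR; 0.336 to 0.925 over all alternatives).

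Klf4, of cell cycle exit and goblet cell maturation, on chromosome 4 (mm10, 55527143 to 55532466), was at 42.5, 240.6, 55.6, 56.2 and 92.2 CPM in SF_HFD libraries 1 to 5, against 228, 41.0, 56.5, 40.5 and 29.2 CPM in SF_CD libraries 1 to 5. One library of each diet stood far above its group, SF_HFD library 2 with 1044 counts and SF_CD library 1 with 101. The means were 97.4 ± 82.2 CPM in SF_HFD, against 79.0 ± 83.7 CPM in SF_CD (SD, n = 5 each), with a fold of 1.27 and an interval of 0.529 to 3.05 (edgeR, adjusted p = 0.877). The log2 fold change was 1.20 without SF_CD library 1, with an unadjusted p of 0.0268 and an adjusted p of 0.310 (edgeR). It was -0.34 without SF_HFD library 2 (edgeR, adjusted p = 0.880). Over all alternatives the adjusted p ran from 0.310 to 0.975 (lowest with edgeR).

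Klf6, a ubiquitous member of the Kruppel-like family on chromosome 13 (mm10, 5861482 to 5870394), was at 219.5, 376, 148, 180 and 464 CPM in SF_HFD libraries 1 to 5, against 1303, 109.9, 195, 146 and 528 CPM in SF_CD libraries 1 to 5. The highest library was 3.13 times the lowest in the SF_HFD group, against 11.9 times in the SF_CD group. Means were 277 ± 136 CPM in SF_HFD, against 456 ± 502 CPM in SF_CD (SD, n = 5 each). The 3 libraries under 1000000 counts were the 3 highest, with 367 counts in SF_HFD library 5 and with 578 and 271 in SF_CD libraries 1 and 5. The fold was 0.611 with an interval of 0.257 to 1.46 (edgeR, adjusted p = 0.692). Without those 3 libraries the log2 fold change was 0.62 (edgeR, adjusted p = 0.383, the lowest of all alternatives, which reached 0.975), against -0.71 with all 10.

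Ier2, a small nuclear protein of the early response, encoded on chromosome 8 (mm10, 84661331 to 84662852), was at 31.8, 65.5, 21.8, 28.2 and 44.2 CPM in SF_HFD libraries 1 to 5, against 20.3, 21.6, 27.5, 17.7 and 35.1 CPM in SF_CD libraries 1 to 5. It varied least of the 10 genes, at the 27.1 percentile of the same 7284 genes, and SF_CD library 1 was not among its high libraries. Ier2 averaged 38.3 ± 17.2 CPM in SF_HFD, against 24.4 ± 6.94 CPM in SF_CD (SD, n = 5 each), and the groups overlapped. The log2 fold change of 0.66 ± 0.39 (SE) had an adjusted p of 0.529 (edgeR), the smallest of the set. It stayed positive in all 19 alternative settings. Egr1 and Dusp1 also kept their sign in all 19, and Fosb in the 18 in which it was tested. Dusp1 came close to 0, however, at -0.018 without SF_CD library 1 and -0.03 over the 7 libraries above 1000000 counts.

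Dusp1, the MAPK phosphatase, on chromosome 17 (mm10, 26505590 to 26562128), was at 13.5, 43.1, 14.7, 13.5 and 44.2 CPM in SF_HFD libraries 1 to 5, against 60.9, 9.15, 45.8, 9.71 and 40.9 CPM in SF_CD libraries 1 to 5. In each diet the libraries fell into a high and a low set: 2 SF_HFD and 3 SF_CD libraries were at 40.9 CPM or more, and the other 5 at 14.7 CPM or less. Dusp1 averaged 25.8 ± 16.3 CPM in SF_HFD, against 33.3 ± 23.0 CPM in SF_CD (SD, n = 5 each). The fold was 0.793 with an interval of 0.340 to 1.85 (edgeR, adjusted p = 0.876). The span of the gene in the GENCODE M21 annotation overlaps Ergic1 and 2 pseudogenes, so some reads may be shared.

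**Figure D2:**
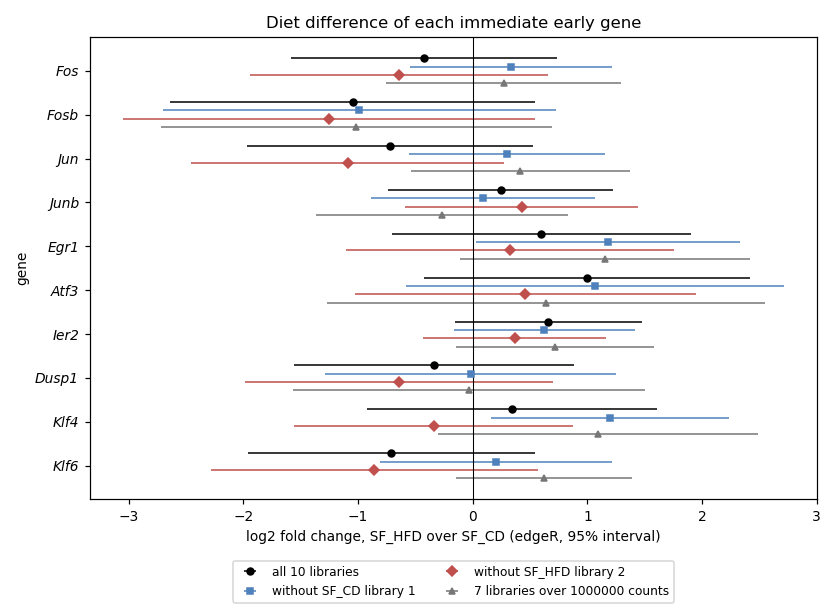
Log2 fold change of SF_HFD over SF_CD for each gene with its 95% interval from edgeR, for all 10 libraries and for 3 reduced sets of libraries. The intervals with all 10 libraries cross 0 for all 10 genes; leaving out SF_CD library 1 moves Fos, Jun and Klf6 across 0, and leaving out SF_HFD library 2 moves Klf4 across 0.

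Some high and low libraries were shared by most of the 10 genes, within both diets. Averaged over the 10 genes, the log2 level relative to each gene's mean was -0.46, 0.80, -0.59, -0.49 and 0.84 in SF_HFD libraries 1 to 5, against 1.08, -0.54, 0.05, -0.85 and 0.16 in SF_CD libraries 1 to 5. Not every gene followed this average. Junb and Ier2 were at -0.87 and -0.51 in SF_CD library 1, and Klf4 was at -1.19 in SF_CD library 5. SF_HFD library 5 was among the 3 highest libraries for all 10 genes, SF_HFD library 2 for 6 and SF_CD library 1 for 8. For SF_HFD library 5 and SF_CD library 1 these include Fosb, whose rank there rests on 2 counts and 1 count. Its mean over the 10 libraries was 1.52 CPM. Of all genes with a mean of at least 10 CPM, 30.3%, 33.8% and 34.6% had SF_HFD library 5, SF_HFD library 2 and SF_CD library 1 among their 3 highest. SF_CD library 4 was above the gene's median for 0 of the 10, against 52.0% of those genes.

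**Figure D3:**
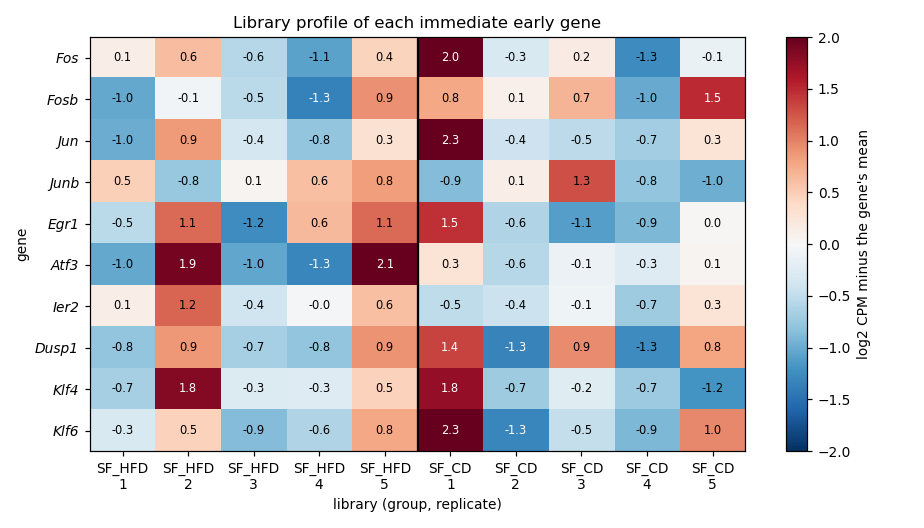
Heat map of the log2 CPM of each gene minus its mean over the 10 libraries, SF_HFD libraries left of the black line and SF_CD libraries right of it. SF_HFD libraries 2 and 5 and SF_CD library 1 are red for most genes; Junb is blue in SF_HFD library 2 and SF_CD library 1.

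The 4 shallowest libraries, SF_HFD libraries 2 and 5 and SF_CD libraries 1 and 5, had the 4 highest mean levels of the 10 genes. SF_CD libraries 1 and 5 also had the 2 largest shares of ribosomal RNA. The part of depth and RNA quality in the levels was not tested. Among the 7 libraries over 1000000 counts, SF_HFD library 2 was the highest for 7 of the 10 genes and SF_CD library 3 for the other 3, against 26.5% and 15.5% of all genes with a mean of at least 10 CPM. Of these 7 libraries, SF_HFD library 2 had the lowest total count, 3648783, and the largest share of ribosomal RNA, 7.19%. In bulk RNA, fewer cells of a type and less RNA per cell cannot be told apart.

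**Figure D4:**
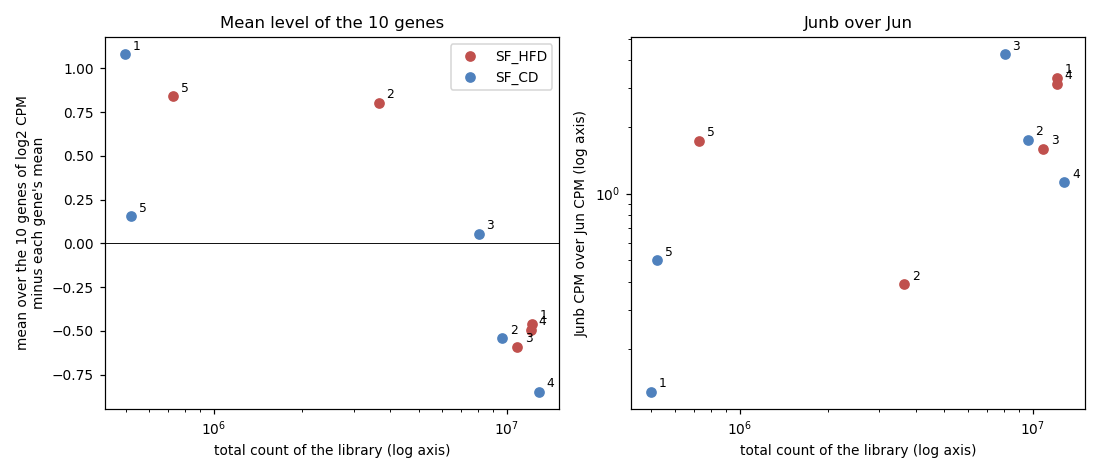
Left, mean over the 10 genes of log2 CPM minus each gene's mean against the total count of the library on a log axis; right, the ratio of Junb to Jun CPM, both on log axes. SF_HFD libraries are red, SF_CD libraries blue, and the 4 libraries with the lowest totals are the 4 highest at left.

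Within the set, the likeness of 2 genes was measured as the root mean square difference of their log2 levels over the 10 libraries after centring. Jun and Klf6 were closest at 0.49, followed by Fos and Jun at 0.51 and Fos and Klf6 at 0.58. Junb was farthest from the others, at 1.52 from Klf6 and 1.505 from Jun. These 10 points share their libraries and depths, so the distances are descriptions. Among 7272 other genes with a mean of at least 10 CPM, the 5 nearest to the mean profile of the set were Rnf19b at 0.25, Rnf170 at 0.27, Nup50 at 0.28, Rab11fip1 at 0.30 and Dyrk1a at 0.30, against a median distance of 1.01. The 10 genes themselves, each of which contributes to that profile, lay 0.45 (Fos) to 1.10 (Junb) from it. Rnf19b was at 18.7 and 21.5 CPM in SF_HFD libraries 2 and 5, against 18.0 and 11.7 CPM in SF_CD libraries 1 and 5, and at 6.60 to 10.1 CPM in the other 6.

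Other genes of the early response did not pass the test with edgeR either. Each count of related genes at an unadjusted p under 0.05 (edgeR) is to be read beside 11.6% of all genes tested. Calls are to be read beside 0.323% of all genes with edgeR. With DESeq2, 78 of 11780 genes were called higher and 220 lower in SF_HFD, and with limma-voom 100 and 73. Of 19 further immediate early transcription factors, 16 were tested and 0 were called by edgeR, DESeq2 or limma-voom, with 2 at an unadjusted p under 0.05. Their median log2 fold change was 0.18. Of the 16, 8 were highest in SF_HFD library 2 and 7 in SF_CD library 1, where 13.5% and 18.3% of all tested genes had their maximum. Bhlhe40, a circadian and hypoxia-responsive repressor, averaged 153 ± 55.3 CPM in SF_HFD, against 234 ± 107 CPM in SF_CD (SD, n = 5 each; edgeR, adjusted p = 0.548), and Myc, the growth regulator, 78.9 ± 32.2 CPM in SF_HFD, against 95.5 ± 42.0 CPM in SF_CD (edgeR, adjusted p = 0.854). Of 26 immediate early genes that are not transcription factors, 25 were tested and 0 were called by edgeR, with 3 at an unadjusted p under 0.05, all lower in SF_HFD. DESeq2 called 1 of them lower, Btg2, and limma-voom 1 higher, Ccn2. Btg1, an antiproliferative gene, was at 86.7 to 173 CPM in SF_HFD, against 68.3 to 1628 CPM in SF_CD, with SF_CD library 1 the highest (edgeR, adjusted p = 0.348). Ier3, an early gene of cell survival, was at 184 to 531 CPM in SF_HFD, against 136 to 393 CPM in SF_CD (edgeR, adjusted p = 0.622).

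Feedback phosphatases related to Dusp1 and other MAPK inhibitors were tested for 14 of 15 genes, with 0 called by edgeR, DESeq2 or limma-voom, 2 at an unadjusted p under 0.05 and a median log2 fold change of -0.51. Dusp6, a phosphatase of ERK, averaged 61.9 ± 8.83 CPM in SF_HFD, against 98.2 ± 32.7 CPM in SF_CD (SD, n = 5 each; edgeR, adjusted p = 0.454). Dusp4, which acts on nuclear MAPKs, was at 9.53 to 29.5 CPM in SF_HFD, against 12.9 to 167 CPM in SF_CD (edgeR, adjusted p = 0.376). Upstream, all 27 kinases and SRF or CREB pathway genes were tested, with 0 called by the 3 tools, 3 at an unadjusted p under 0.05 and a median of 0.305. Crebbp, the acetyltransferase that binds active CREB, was at 20.2 to 65.7 CPM in SF_HFD, against 24.4 to 273 CPM in SF_CD, with SF_CD library 1 the highest (edgeR, adjusted p = 0.425). Nras, a GTPase that feeds the MAPK cascade, was at 79.7 to 159 CPM in SF_HFD, against 126 to 150 CPM in SF_CD (edgeR, adjusted p = 0.969).

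Of 9 other Kruppel-like factors 7 were tested, with 0 called by the 3 tools, 0 at an unadjusted p under 0.05 and a median of -0.71. Klf5, of proliferating crypt cells, was at 116 to 296 CPM in SF_HFD, against 98.5 to 902 CPM in SF_CD (edgeR, adjusted p = 0.635). Klf3, a repressor, was at 76.9 to 180.0 CPM in SF_HFD, against 71.2 to 539 CPM in SF_CD (edgeR, adjusted p = 0.628). Both were highest in SF_CD library 1 with SF_HFD library 2 next, as Jun and Fos were. Of 18 AP-1 target genes 13 were tested and 0 were called by the 3 tools, with 3 at an unadjusted p under 0.05 and a median of -0.53. Cd44, an adhesion receptor, was at 92.4 to 256 CPM in SF_HFD, against 117 to 1096 CPM in SF_CD (edgeR, adjusted p = 0.516). Ccnd1, the G1 cyclin, was at 181 to 269 CPM in SF_HFD, against 110.7 to 854 CPM in SF_CD (edgeR, adjusted p = 0.677). All 14 heat shock genes, a stress response apart from the early genes, were tested, with 0 called by the 3 tools, 1 at an unadjusted p under 0.05 and a median of -0.09. Hsp90ab1, a chaperone, was at 1432 to 2998 CPM in SF_HFD, against 1619 to 5879 CPM in SF_CD (edgeR, adjusted p = 0.426). Hspa8, another, was at 1278 to 3036 CPM in SF_HFD, against 868 to 2262 CPM in SF_CD (edgeR, adjusted p = 0.739).

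Smooth muscle markers differed between the diets. They were called higher in SF_HFD for 2 of 5 tested with edgeR, 4 with DESeq2 and 5 with limma-voom. Of all 11780 genes, edgeR called 18 higher, DESeq2 78 and limma-voom 100. Acta2, the smooth muscle actin, was at 81.03 to 126 CPM in SF_HFD, against 1.68 to 13.6 CPM in SF_CD, a fold of 15.7 (edgeR, adjusted p = 0.00232). Actg2, its enteric relative, was at 33.1 to 54.3 CPM in SF_HFD, against 0 to 5.29 CPM in SF_CD (edgeR, adjusted p = 0.0159). Without the 3 libraries under 1000000 counts neither passed (edgeR, adjusted p = 0.0701 and 0.159), but the log2 fold changes were 4.08 for Acta2 and 4.25 for Actg2, against 3.97 and 4.47 with all 10 libraries. Actg2 also missed the threshold without SF_HFD library 2, SF_HFD library 5 or SF_CD library 1 (edgeR, adjusted p = 0.0564, 0.0532 and 0.0582), with log2 fold changes of 4.49, 4.33 and 4.38. Of 7 fibroblast markers 5 were tested and 0 called by edgeR, 1 by DESeq2 and 3 by limma-voom, with 3 at an unadjusted p under 0.05. Dcn, a matrix proteoglycan, was at 21.7 to 41.7 CPM in SF_HFD, against 2.52 to 23.4 CPM in SF_CD (edgeR, adjusted p = 0.187), and Col1a1, a collagen chain, at 16.2 to 45.5 CPM in SF_HFD, against 1.21 to 23.4 CPM in SF_CD (edgeR, adjusted p = 0.222). The fibroblast sum was 67.5 to 142 CPM in SF_HFD, against 11.6 to 89.8 CPM in SF_CD. Of 8 epithelial markers 0 were called by edgeR or limma-voom and 1, Krt8, by DESeq2, with 4 at an unadjusted p under 0.05. Krt19 averaged 2307 ± 496 CPM in SF_HFD, against 1648 ± 975 CPM in SF_CD, with an adjusted p of 0.661 (edgeR; SD, n = 5 each). Krt18 averaged 862 ± 395 CPM in SF_HFD, against 534 ± 146 CPM in SF_CD, with an adjusted p of 0.457 (edgeR; SD, n = 5 each).

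Most blood and vessel markers were too scarce to be tested, but Cd68 averaged 23.0 CPM over the 10 libraries. Of the 5 endothelial markers only Pecam1 was tested, at 0 to 3.92 CPM in SF_HFD, against 1.75 to 31.6 CPM in SF_CD, highest in SF_CD library 1 (edgeR, adjusted p = 0.430). Of the 7 leukocyte markers Cd68 and Cd52 were tested. Cd68, of macrophages, was at 6.68 to 29.8 CPM in SF_HFD, against 15.7 to 33.5 CPM in SF_CD (edgeR, adjusted p = 0.898). Cd52 was at 0.151 to 21.3 CPM in SF_HFD, against 0.441 to 3.89 CPM in SF_CD (edgeR, adjusted p = 0.540). S100a8, of neutrophils, was at 2.53 to 24.1 CPM in SF_HFD, against 0 to 10.1 CPM in SF_CD (edgeR, adjusted p = 0.366). The endothelial, leukocyte and neutrophil lists together had 0 calls by any of the 3 tools and 1 gene, S100a8, at an unadjusted p under 0.05. Whether these cell types contributed to the levels of the 10 early genes was not tested.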

How the data were processed

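Directional libraries were made after poly(A) selection, as the labels' protocols say. Salmon 1.3.0 and mm10 are named in the submitters' processing notes, and the authors deposited the estimated counts as 1 table of whole numbers. Neither the annotation release nor the counting strand is stated there. Of 54354 rows, 1243 have no symbol, and 94.7% of identifiers occur in the GENCODE M21 annotation, which gave lengths and overlaps. Columns of the diets with serine were left out because their row labels do not name their counts.

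The 5 SF_HFD and 5 SF_CD libraries were compared with edgeR 4.0.16 in R 4.3.3 (robust quasi-likelihood test, TMM, filterByExpr), with Benjamini-Hochberg adjustment over all 11780 genes and a threshold of 0.05. The procedure was tested on simulated data. Alternatives were DESeq2 1.42.0, the limma-voom variant that weights libraries by quality (limma 3.58.1), other scalings and filters, a replicate block and left-out libraries. Totals ranged from 499774 to 12841275, and Poisson intervals cover counting error only. Log2 profiles used a prior count of 2.

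Members and gene lists were chosen with earlier results of these data known. Text names the 10 members, up to 4 called or else the 2 most abundant genes of each other list, and the 5 genes nearest to the mean profile. Btg2, Ccn2, Krt8, Cd3e and genes not tested were named after their values were seen. One gene of the upstream list is not reported here. Promoters are RefSeq's (GRCm38.p6).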

Additional observations from a re-analysis of the deposited data

Results flagged for a closer look

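Within each group of 5, a library was picked out where its gap to the nearest other library, divided by the range of the group, passed Dixon's 95% critical value of 0.71. This was so in 15 of the 68 groups examined, and in 5 of the 20 groups of the 10 immediate early genes, 1 in SF_HFD and 4 in SF_CD. The limit is set so that chance gives about 1 in 20 for independent normal values, and the genes share their libraries. Of all genes with a mean of at least 10 CPM, 10.8% of the SF_HFD groups and 12.8% of the SF_CD groups passed it. Among the immediate early genes, Klf4 stood out in SF_HFD library 2 at 240.6 CPM, and in SF_CD library 1 Fos did at 110.5, Jun at 229.9, Egr1 at 27.1 and Klf4 at 228 CPM. Among the related genes, Klf5 stood out in SF_HFD library 2 at 296 CPM. In SF_CD library 1, Btg1 stood out at 1628 CPM, Dusp4 at 167, Klf5 at 902, Klf3 at 539, Cd44 at 1096 and Pecam1 at 31.6 CPM. Elsewhere these were Cd52 in SF_HFD library 3 at 21.3 CPM, Dcn in SF_HFD library 5 at 41.7 CPM and Col1a1 in SF_CD library 5 at 23.4 CPM. Some of these values rest on few counts: Egr1 and Pecam1 in SF_CD library 1 on 12 and 14, and Col1a1 in SF_CD library 5 on 12. The cause was not tested.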

How the results depend on the processing

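In 189 combinations of an immediate early gene and an alternative, 0 were called, 178 kept the sign of the log2 fold change (SF_HFD over SF_CD) and 11 turned it. Without the 3 libraries under 1000000 counts, Fos was at 0.27, Jun at 0.415, Junb at -0.27 and Klf6 at 0.62. With limma-voom and sample quality weights, which changes both the tool and the weighting, Junb was at -0.038, Atf3 at -0.50 and Klf6 at 0.21. Jun counts as keeping its sign there, but only at -0.003. Leaving out 1 library each gave -0.71 to 0.34 for Fos, -1.09 to 0.30 for Jun, 0.08 to 0.86 for Junb, 0.46 to 1.27 for Atf3, -0.34 to 1.20 for Klf4 and -0.98 to 0.20 for Klf6. For Dusp1 the same range was -0.64 to -0.018. All genes called numbered 38, against 78 without a filter, 18 with a stricter one, 298 with DESeq2, 173 with limma-voom and sample quality weights, 22 with the replicate block and 16 to 88 with 1 library left out (88 without SF_CD library 2, 16 without SF_HFD library 4). Same-numbered libraries correlated at -0.36 to 0.18. The labels do not say whether the numbers pair libraries, and these correlations cannot decide it. Fosb was not tested under the stricter filter. Among related genes, without the 3 shallow libraries Myc was at 0.27, Btg1 at 0.29, Dusp4 at 0.22, Crebbp at 0.59, Klf5 at 0.66, Klf3 at 0.24, Cd44 at 0.31 and Ccnd1 at 0.92. With limma-voom and these weights Crebbp was at 0.30, Klf5 at 0.15, Cd44 at 0.13 and Ccnd1 at 0.65, and Nras was at 0.003 without a filter. With 1 library left out the ranges were -0.14 to 0.084 for Nras, -1.03 to 0.28 for Klf5, -0.95 to 0.15 for Klf3, -0.87 to 0.032 for Ccnd1, -0.37 to 0.027 for Cd68 and -0.95 to 2.48 for Cd52. Acta2 and Actg2 were not called without the shallow libraries (edgeR, adjusted p = 0.0701 and 0.159), nor Actg2 without SF_HFD library 2 (0.0564), SF_HFD library 5 (0.0532) or SF_CD library 1 (0.0582), with log2 fold changes of 4.08 for Acta2 and 4.25 to 4.49 for Actg2, against 3.97 and 4.47 with all libraries. The cause of these differences was not tested.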
